A study of Homo sapiens with 15 samples.

Results

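Tamoxifen-resistant T47D cells that had received both 4-hydroxytamoxifen (4-OHT) and erdafitinib were compared with the same resistant cells on vehicle, which gives the full effect of the drug pair. The comparison rests on 6 of the 15 libraries in the series, 3 on each side, taken by their labelled treatment. T47D is an established luminal breast cancer line that carries the oestrogen receptor (ER). The resistant derivative (TR) had been grown in 2% charcoal-stripped serum with 1 µM 4-OHT, the active metabolite of tamoxifen, while parental cells (PAR) were grown in 5% serum. All cells were plated for 24 h, starved for 48 h in phenol red-free medium with 2% charcoal-stripped serum and 8 µg/mL insulin, and then treated for 120 h. The pair (TR combination) was 1 µM 4-OHT with 5 µM erdafitinib, an inhibitor of the fibroblast growth factor receptors FGFR1 to FGFR4, and the control (TR vehicle) was 0.05% DMSO. The vehicle cells were therefore resistant cells from which 4-OHT had been withdrawn. The other groups, each with 3 libraries, were TR on 4-OHT, TR on erdafitinib and PAR on vehicle, and they entered the fit to give a shared estimate of the spread. The labels call the libraries biological replicates without naming separate cultures, so the p-values speak for the spread among these libraries alone, and that spread could be technical. The resistant cells are 1 derived line, and differences between independently derived resistant lines were not measured.

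Interferon-stimulated genes are a set of antiviral genes that most cell types hold at a low level and switch on together. Interferons bind surface receptors whose kinases activate transcription factors, among them STAT2, which joins IRF9 and binds as a complex to the interferon-stimulated response element in the promoters of the set. FGFR signalling runs mainly through the RAS-ERK and PI3K-AKT pathways, and 4-OHT binds the ER and blocks its activation by oestrogen in breast cells.

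The gene lists described below include 40 interferon response genes, and the promoters of those that rose are shown first because the group holds the largest rises. RefSeq promoter windows (GRCh38.p14, 250 bases before to 50 after the annotated start) were found for 31 of the 40. The interferon-stimulated response element was searched on both strands as 2 GAAA blocks with any 2 bases between them, without regard to overlap with other motifs. It was in 996 of all 27305 windows (3.65%), in 2.77% of the windows of genes tested and in 20 of the 31 (64.5%). It was in 11 of 18 windows of list members that rose (61.1%) and in 9 of 13 windows of members that did not pass the test (69.2%), so its presence did not separate them. Windows of 4 genes that rose are given 5′ to 3′ on the strand of the gene, with the matched bases in capitals. They are from MX1 (chr21:41420308-41420607, plus strand), OAS3 (chr12:112938224-112938523, plus strand), IFI27 (chr14:94110486-94110785, plus strand) and DDX60 (chr4:168318703-168319002, minus strand).
MX1: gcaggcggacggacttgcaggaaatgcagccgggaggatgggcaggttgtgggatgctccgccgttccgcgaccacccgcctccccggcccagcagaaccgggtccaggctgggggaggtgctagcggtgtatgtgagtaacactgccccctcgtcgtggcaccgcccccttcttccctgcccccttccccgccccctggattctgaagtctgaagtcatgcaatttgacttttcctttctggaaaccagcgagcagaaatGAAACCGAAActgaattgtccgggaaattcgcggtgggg
OAS3: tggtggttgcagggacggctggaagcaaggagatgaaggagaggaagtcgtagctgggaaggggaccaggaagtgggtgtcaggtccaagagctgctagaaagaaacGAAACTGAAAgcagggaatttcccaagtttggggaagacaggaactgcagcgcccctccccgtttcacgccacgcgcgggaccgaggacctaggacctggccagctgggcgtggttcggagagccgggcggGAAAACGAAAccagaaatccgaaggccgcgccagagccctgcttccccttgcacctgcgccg
IFI27: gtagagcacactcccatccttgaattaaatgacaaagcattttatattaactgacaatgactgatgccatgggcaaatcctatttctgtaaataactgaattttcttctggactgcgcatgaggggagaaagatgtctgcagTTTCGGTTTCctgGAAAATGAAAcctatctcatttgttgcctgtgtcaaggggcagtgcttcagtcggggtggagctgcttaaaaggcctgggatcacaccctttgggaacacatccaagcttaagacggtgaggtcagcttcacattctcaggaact
DDX60: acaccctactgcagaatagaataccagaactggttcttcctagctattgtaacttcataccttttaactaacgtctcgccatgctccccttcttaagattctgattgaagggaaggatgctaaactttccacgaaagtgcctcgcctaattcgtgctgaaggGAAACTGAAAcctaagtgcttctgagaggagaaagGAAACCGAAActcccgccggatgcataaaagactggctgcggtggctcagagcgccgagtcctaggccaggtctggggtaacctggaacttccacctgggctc
The MX1 window held 1 match and the other windows 2 each, and in IFI27 the first match is on the opposite strand. OAS1 and HERC6, which also rose, had windows without a match to these letters.

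The 6 libraries held 21025659 to 27229667 counts, within the range of all 15 (6946684 to 28717380), and mitochondrial genes took 15.6 to 22.9% of counts. All 8 luminal epithelial markers checked were present in each of the groups. Of 22 markers of blood, endothelial, stromal and fat cells, 6 were at 0 in TR combination (CD3D, CD3E, CDH5, DCN, FABP4 and HBB) and 7 in TR vehicle, and their summed level was 16.1 to 32.8 CPM (read counts scaled to a common library total with TMM factors) and 14.6 to 39.9 CPM. Among the 6 compared libraries TR vehicle 1 stood apart. Within groups, libraries differed along an axis that ran with the GC content of transcripts (Spearman 0.72 across genes, taken as a description because genes share libraries). Genes in the highest of 5 equal GC bins (median 60.9%) deviated from the group mean by -1.02 (log2) in TR vehicle 1, against 0.51 in TR vehicle 2 and 0.51 in TR vehicle 3. In TR combination 1, 2 and 3 the deviations were -0.49, -0.11 and 0.61. Of the other libraries in the fit, PAR vehicle 3 deviated by 0.89 and PAR vehicle 2 by -0.66. Counts and part of the single genes below are given also without TR vehicle 1, and the part of GC content in single genes was not tested. Leaving out TR vehicle 1 keeps TR vehicle 2 and TR vehicle 3, both at 0.51 in the highest bin. It therefore raises the vehicle level in that bin and does not even out GC content between the groups.

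Few genes were called with both drugs, and most of the largest called rises were interferon response genes. Of 16210 genes tested, 50 rose (0.308%) and 29 fell (0.179%) at an adjusted p under 0.05, 79 in all (0.487%; edgeR quasi-likelihood test, Benjamini-Hochberg adjustment). Of the 79, 62 changed at least 2-fold and 23 at least 4-fold. Interferon response genes made up 20 of the 50 that rose. The genes that fell included matrix, chemokine and retinoid enzyme genes, and FGFR2. All 79 had groups that did not overlap, as did 10.8% of all genes tested. Such separation is nearly given for genes picked by a small p from the same values. It describes the called genes, here and below, and is not added support. The median log2 fold change of all genes was -0.03. From the lowest to the highest GC bin it was 0.05, 0.05, 0.02, -0.08 and -0.32. In the highest bin 0 genes were called higher and 3 lower. List medians of this size can therefore reflect the GC content of the members, which was not tested. Without TR vehicle 1 the test called 111 genes (62 higher, 0.368% of the 16866 then tested, and 49 lower, 0.291%), 66 of them among the 79. The count depended on which libraries were fitted, at 35 without TR vehicle 2, 35 without TR vehicle 3, 46 without TR combination 1, 46 without TR combination 2 and 40 without TR combination 3, and 11 when only the 6 libraries were fitted. In all 6 fits that left out 1 library, 31 of the 79 were called (22 higher, 9 lower), and 10 were called in none of them. DESeq2 called 246 genes (124 higher, 122 lower). The fit with the within-group axis as covariate called 641 (307 higher, 334 lower). That axis was computed from these same counts and held 49.5% of the within-group variance, so fitting it lowers the estimated spread by construction. The calls it adds are not separate support. Counts of list members called in these fits, given below, stand beside these totals. In simulated counts of this size 17.3% of 2-fold changes were called. Those counts were drawn gene by gene without the within-group axis, so the share may not hold for these libraries. With trends on GC content and gene length removed from each library, 369 genes were called, and the split of 50 higher and 29 lower became 190 and 179.

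**Figure D1:**
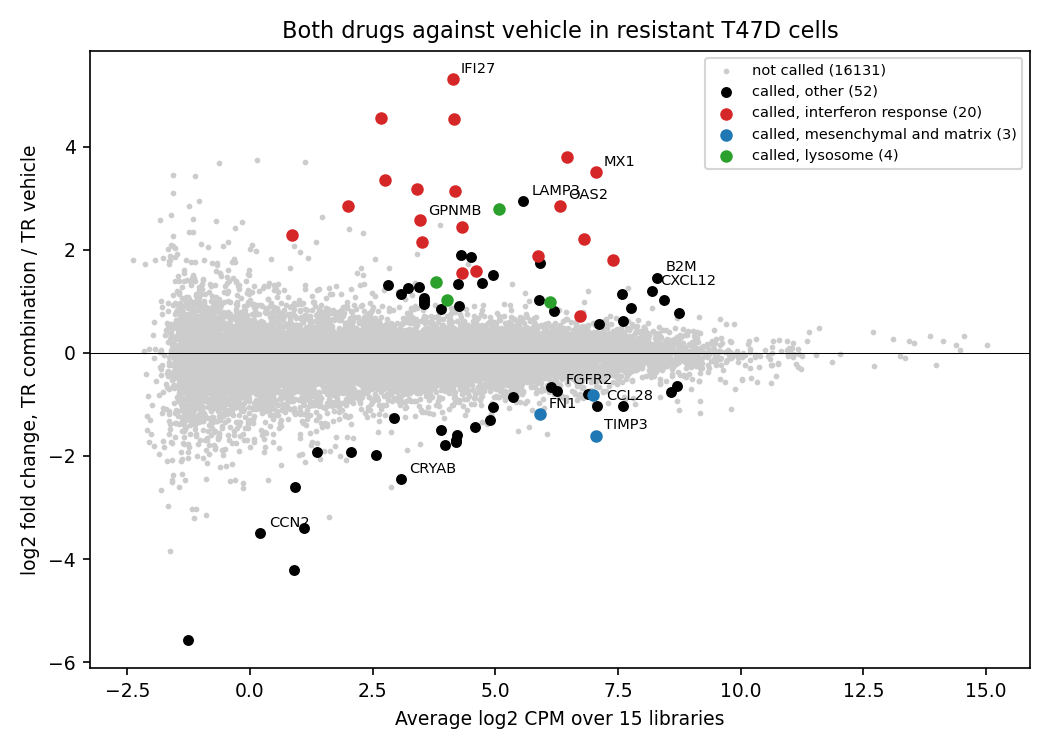
log2 fold change of each of 16210 genes between TR combination and TR vehicle (vertical axis) against its average log2 CPM over the 15 libraries (horizontal axis). Grey points are genes not called, and red, blue, green and black points are called interferon response (20), mesenchymal and matrix (3), lysosome (4) and other genes (52). The red points lie between 0.72 and 5.32, and the 3 blue points between -1.61 and -0.82.

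The interferon response genes formed the largest group among the rises. In bulk RNA, more cells of a type and more RNA per cell cannot be told apart, here and for every gene below. Of its 40 genes, 20 rose and 0 fell (50% against 0.308% of all genes), and 39 had a positive log2 fold change, ISG20 (-0.02) being the exception. The members were chosen with earlier results of these data known, so these shares are not independent support. The list's median log2 fold change was 2.11. In 36 of the 40, every TR combination library was above every TR vehicle library, against 5.66% of all genes. The number that rose was 22 without TR vehicle 1, 12 without TR vehicle 2, 12 without TR vehicle 3 and 14 to 15 without 1 of the combination libraries. It was 7 with only the 6 libraries fitted, while the median then was 2.13.

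MX1, an antiviral GTPase gene (ENSG00000157601, chr21:41420020-41470071), stood at 49.9, 43.4 and 22.8 CPM in the TR vehicle libraries and at 515, 345 and 457 CPM with both drugs. The groups were far apart, and the lowest treated library was above the highest vehicle library by several fold. The log2 fold change was 3.51 (SE 0.30; adjusted p = 5.39e-05, edgeR quasi-likelihood test), or 3.73 without TR vehicle 1. In PAR, MX1 was at 6.42 ± 1.30 CPM (SD, n = 3).

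The oligoadenylate synthetases, which make the messenger that activates the RNA-degrading enzyme RNase L, rose together. They lie side by side on chromosome 12. OAS2 (chr12:112978395-113011723) had 36.8, 36.2 and 23.7 CPM on vehicle and 258, 179 and 264 CPM with both drugs (log2 fold change 2.86, SE 0.25; adjusted p = 6.15e-05, edgeR). OAS1 (chr12:112905856-112933219) went from 7.43, 7.22 and 4.31 to 57.7, 43.5 and 66.1 CPM (3.14, SE 0.33; adjusted p = 0.000273, edgeR). OAS3 (chr12:112938051-112976460) went from 51.9, 73.3 and 56.4 to 270, 231 and 338 CPM (2.21, SE 0.20; adjusted p = 7.95e-05, edgeR). In each of the OAS genes the groups were separate and the call was kept in all 6 fits without 1 library. OASL, a related gene without synthetase activity, had a log2 fold change of 1.81 but did not pass (adjusted p = 0.231, edgeR).

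IFI27 had the largest rise of the list. This gene of a small mitochondrial protein (chr14:94104836-94116698) was near silent on vehicle, at 1.13, 2.32 and 1.57 CPM, and stood at 48.2, 44.8 and 110 CPM with both drugs. TR combination 3 was well above the other treated libraries, the groups were separate, and the log2 fold change was 5.32 (SE 0.59; adjusted p = 0.000354, edgeR). IFI6, a related gene, went from 2.12, 3.85 and 2.19 to 35.6, 53.7 and 102 CPM. Its log2 fold change was 4.54 (SE 0.73; adjusted p = 0.00971, edgeR), and the call was lost without TR vehicle 2, TR vehicle 3 or TR combination 3 (adjusted p = 0.052 to 0.0929, edgeR). XAF1, which encodes a pro-apoptotic partner of the inhibitor of apoptosis XIAP, went from 1.91, 0.748 and 0.479 to 26.0, 14.8 and 31.6 CPM (4.56, SE 0.62; adjusted p = 0.00263, edgeR). In these 3 genes the vehicle libraries were low throughout and the groups did not overlap.

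The IFIT genes encode proteins that bind foreign RNA ends, and their vehicle levels differed between libraries. IFIT1 (chr10:89392546-89406487) stood at 42.5, 15.2 and 7.76 CPM on vehicle and at 406, 238 and 268 CPM with both drugs (log2 fold change 3.81, SE 0.49; adjusted p = 0.00157, edgeR). TR vehicle 1 was the highest of the vehicle libraries, and without it the log2 fold change was 4.73. IFIT3 went from 10.01, 2.77 and 2.56 to 35.7, 28.5 and 26.2 CPM (2.57, SE 0.50; adjusted p = 0.0368, edgeR). The IFIT3 call was kept only without TR vehicle 1 among the 6 fits (3.50; adjusted p = 0.000925, edgeR) and was lost in the others (adjusted p = 0.099 to 0.222). IFIT5 rose by 1.60 on the log2 scale (17.8 ± 6.66 to 53.7 ± 8.37 CPM) and was called in all 6 fits, and IFIT2 did not pass (1.35; adjusted p = 0.502, edgeR).

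Among genes that sense viral RNA or carry the interferon signal, IFIH1, DDX60 and STAT2 rose. IFIH1, which encodes the double-stranded RNA sensor MDA5, had 13.5 ± 3.45 CPM on vehicle and 39.4 ± 4.77 CPM with both drugs (log2 fold change 1.54, SE 0.24; adjusted p = 0.00877, edgeR). DDX60, a helicase gene linked to RNA sensing, stood at 15.0, 8.98 and 7.05 CPM on vehicle and at 70.2, 40.0 and 58.3 CPM with both drugs (2.44, SE 0.29; adjusted p = 0.000639, edgeR). RIGI, the gene of the other main cytosolic RNA sensor, did not pass (1.23; adjusted p = 0.565, edgeR). STAT2 rose by 0.72, from 91.0 ± 8.07 to 150 ± 20.3 CPM (adjusted p = 0.0368, edgeR), and was called in none of the 6 fits without 1 library. IRF9 (1.23; adjusted p = 0.56) and IRF7 (1.05; adjusted p = 1) did not pass.

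Other members that rose have regulatory or less settled antiviral roles. HERC6, of a family of ubiquitin and ISG15 ligases, stood at 2.27, 2.06 and 2.12 CPM on vehicle and at 23.4, 16.9 and 25.7 CPM with both drugs (log2 fold change 3.35, SE 0.40; adjusted p = 0.000687, edgeR). PARP9 rose by 1.88 on the log2 scale in all 6 fits; it overlaps DTX3L, which lies on the opposite strand and encodes its partner. IFI44 went from 6.35, 2.47 and 2.29 to 43.4, 25.5 and 30.6 CPM (3.17, SE 0.51), a call lost without TR vehicle 2, TR vehicle 3 or TR combination 1 (adjusted p = 0.0507 to 0.0929, edgeR). SAMD9 rose by 2.14 (SE 0.43; adjusted p = 0.0449), but the call held among the 6 fits only without TR vehicle 1 (2.89; adjusted p = 0.00178, edgeR; 0.0723 to 0.248 in the others). RSAD2, which encodes viperin, rose by 2.86 and its neighbour CMPK2 by 2.28. These overlap on opposite strands, and both were low on vehicle (1.60 ± 1.03 and 0.803 ± 0.115 CPM). RSAD2 was called in 1 of the 6 fits and CMPK2 in 2.

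Of the 20 members that did not pass, several had large but variable differences. IFI44L had a log2 fold change of 3.70 (adjusted p = 0.0615), ISG15, a ubiquitin-like modifier gene, 2.54 (adjusted p = 0.565), and IFITM1, which encodes a protein that blocks viral entry, 2.49 (adjusted p = 0.254; all edgeR). ISG15 was near the floor, at 0.206, 0.561 and 0.342 CPM on vehicle and at 0.670, 0.818 and 5.14 CPM with both drugs. Its large difference came mostly from TR combination 3. The paralogues IFITM1, IFITM2 and IFITM3 are close copies, and reads that matched several places were left out, so their separate values are uncertain. BST2 (0.57) and IFITM2 (0.33) had smaller differences and overlapping groups. MX2 (0.85, adjusted p = 0.931, edgeR) was low, at 1.03, 1.65 and 1.20 CPM on vehicle and at 2.21, 2.59 and 2.23 CPM with both drugs. Its groups did not overlap.

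**Figure D2:**
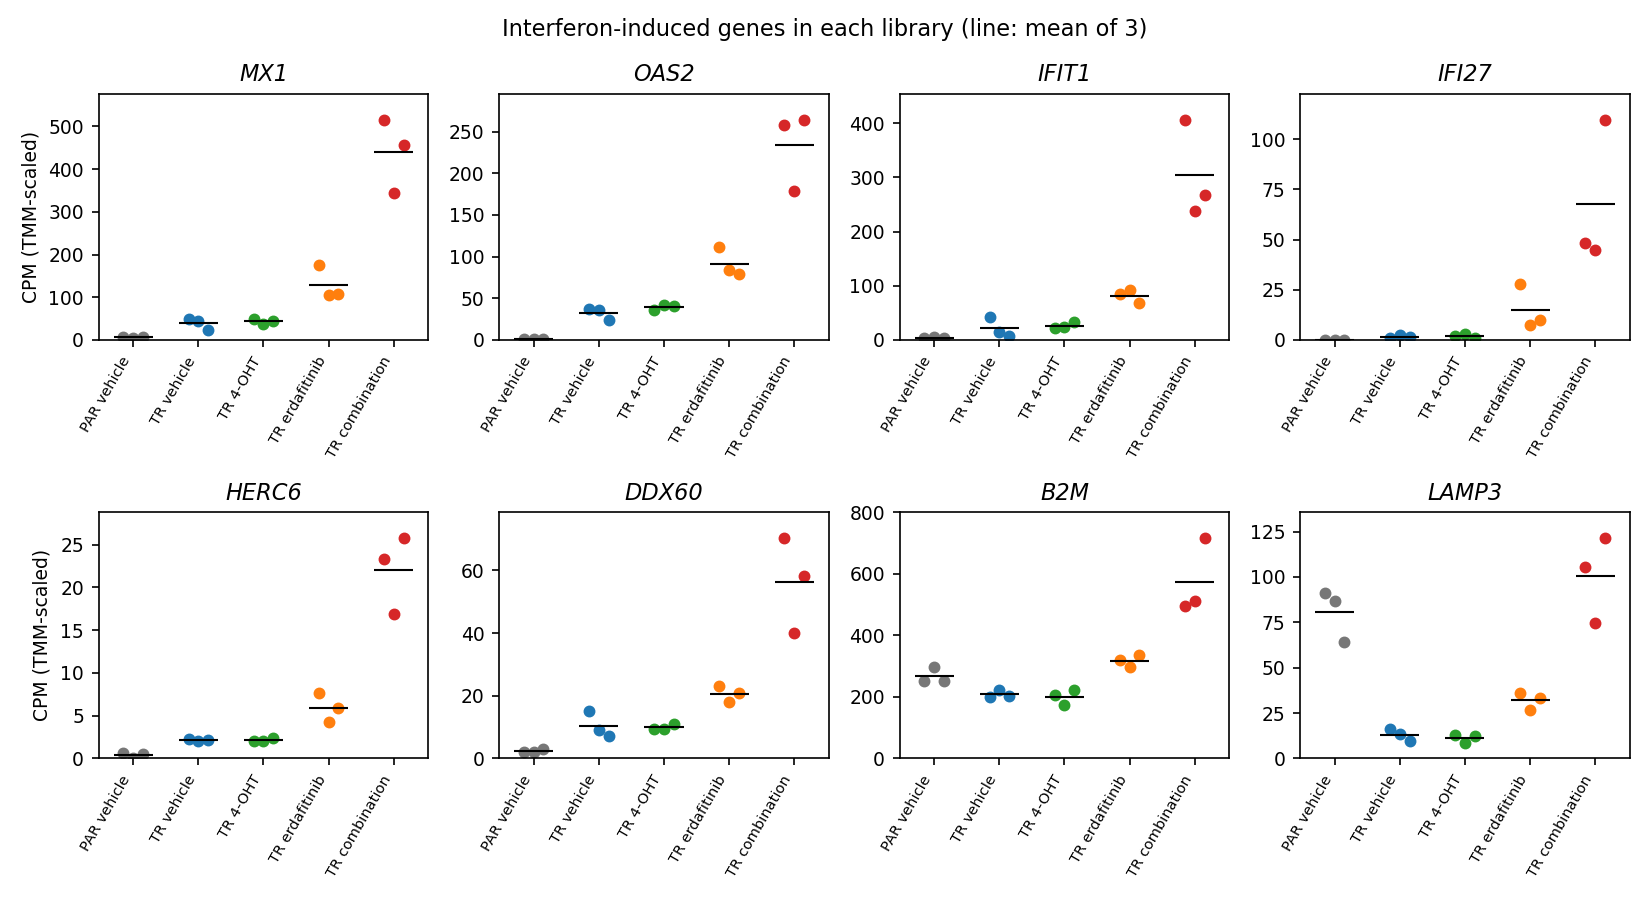
Level of 8 genes (vertical axes, TMM-scaled CPM from 0) in each of the 15 libraries, by group (horizontal axis), with the mean of 3 libraries as a line. In each panel the 3 TR combination points lie above the 3 TR vehicle points and the TR erdafitinib mean lies between the means of those groups, while LAMP3 also stood high in PAR.

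Antigen presentation was represented by 1 call. B2M, the invariant chain of MHC class I (chr15:44711487-44718851), stood at 198, 223 and 203 CPM on vehicle and at 495, 511 and 715 CPM with both drugs. The groups were separate and the log2 fold change was 1.46 (SE 0.16; adjusted p = 0.000354, edgeR), in all 6 fits. Of the 16 genes of the MHC class I list 1 rose (0.308% of all genes rose) and 0 fell, with a median of 0.55. HLA-B (0.84; adjusted p = 0.947) and HLA-C (0.70; adjusted p = 1, both edgeR) did not pass. These class I genes are similar in sequence and highly polymorphic, so their counts are uncertain.

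LAMP3, the gene of a lysosome-associated membrane glycoprotein that interferon also induces (chr3:183122215-183163839), had 16.1, 13.5 and 9.71 CPM on vehicle and 105, 74.4 and 121 CPM with both drugs. The parental libraries had 91.1, 86.9 and 64.3 CPM, which overlapped with the treated ones, of which 2 were higher. The log2 fold change was 2.94 (SE 0.25; adjusted p = 5.39e-05, edgeR), or 3.12 without TR vehicle 1.

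Of the matrix and mesenchymal genes, 3 fell with both drugs. TIMP3, which encodes an inhibitor of matrix metalloproteinases (chr22:32801705-32863041), stood at 250, 223 and 262 CPM on vehicle and at 77.5, 86.6 and 77.3 CPM with both drugs. The libraries within each group were close together, and the log2 fold change was -1.61 (SE 0.13; adjusted p = 5.39e-05, edgeR). In PAR, TIMP3 was at 0.989 ± 0.195 CPM, so the treated cells stayed far above parental cells. FN1, the fibronectin gene (chr2:215360440-215436073), went from 82.4, 87.4 and 88.4 to 44.5, 32.8 and 35.8 CPM (-1.19, SE 0.16; adjusted p = 0.0027, edgeR), which is near the PAR level of 38.2 ± 4.71 CPM. TPM1, a tropomyosin gene, went from 142, 151 and 134 to 82.1, 89.4 and 70.9 CPM (-0.82, SE 0.13; adjusted p = 0.00693, edgeR). These 3 calls were kept in all 6 fits without 1 library.

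Of the 26 mesenchymal and matrix genes tested, 0 rose and 3 fell (0.179% of all genes fell). In 11 every TR combination library was below every TR vehicle library, against 5.18% of all genes. In all, 23 had a negative log2 fold change and the median was -0.84. Without TR vehicle 1, 7 fell and the median was -1.07. COL3A1 (-1.92; adjusted p = 0.0766), COL5A1 (-1.77; adjusted p = 0.14) and SPARC (-0.99; adjusted p = 0.134, all edgeR), genes of collagens and of a secreted matrix protein, did not pass. VIM, the vimentin gene, stood at 0.774, 1.68 and 1.54 CPM on vehicle and at 1.85, 2.45 and 1.67 CPM with both drugs, low and overlapping levels (0.57, SE 0.68; adjusted p = 1).

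TGFB2, which encodes a TGF-beta ligand (chr1:218345336-218444619), stood at 55.9, 37.5 and 44.3 CPM on vehicle and at 26.5, 16.4 and 12.9 CPM with both drugs. It fell by 1.30 on the log2 scale (SE 0.26; adjusted p = 0.0421, edgeR), with groups that did not overlap. The call was kept without TR combination 1 and lost without any other of the 6 libraries (adjusted p = 0.0663 to 0.223), among them TR vehicle 1 (-1.13; adjusted p = 0.0914, edgeR). Among the 24 TGF-beta pathway genes it was the sole call (0.179% of all genes fell), and the list median was -0.19. The receptor gene TGFBR2 (-1.37; adjusted p = 0.219) and the feedback gene PMEPA1 (-0.47; adjusted p = 0.449, both edgeR) did not pass.

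Targets of YAP, the coactivator that responds to cell shape and tension, had 14 of 15 negative log2 fold changes (median -0.48). Of the 15, 1 fell at the threshold, against 0.179% of all genes. CCN2, which encodes connective tissue growth factor, was low on vehicle at 1.86, 2.51 and 2.60 CPM and lower with both drugs at 0.118, 0.454 and 0.0428 CPM. It fell by 3.49 on the log2 scale (SE 0.63; adjusted p = 0.0207, edgeR), with few counts behind it, and was called without TR vehicle 1 or TR combination 2 but not without the other libraries (adjusted p = 0.0744 to 0.136). ANKRD1 (-2.06; adjusted p = 0.0615) and CCN1 (-0.80; adjusted p = 0.209, both edgeR) did not pass. Genes of basal and myoepithelial cells had 12 of 13 negative values and a median of -0.86, with 0 calls, and 8 of them were lower at an unadjusted p under 0.05 (3.08% of all genes). With DESeq2 3 of the basal genes fell, and without TR vehicle 1 edgeR called 2. Of all genes, 122 and 49 fell in those fits. TRIM29 stood at 42.8 ± 14.3 CPM on vehicle and 17.0 ± 1.48 CPM with both drugs (-1.33; adjusted p = 0.0973, edgeR), and ACTA2, smooth muscle actin, at 819 ± 392 and 430 ± 55.5 CPM (-0.93; adjusted p = 0.362, edgeR).

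**Figure D3:**
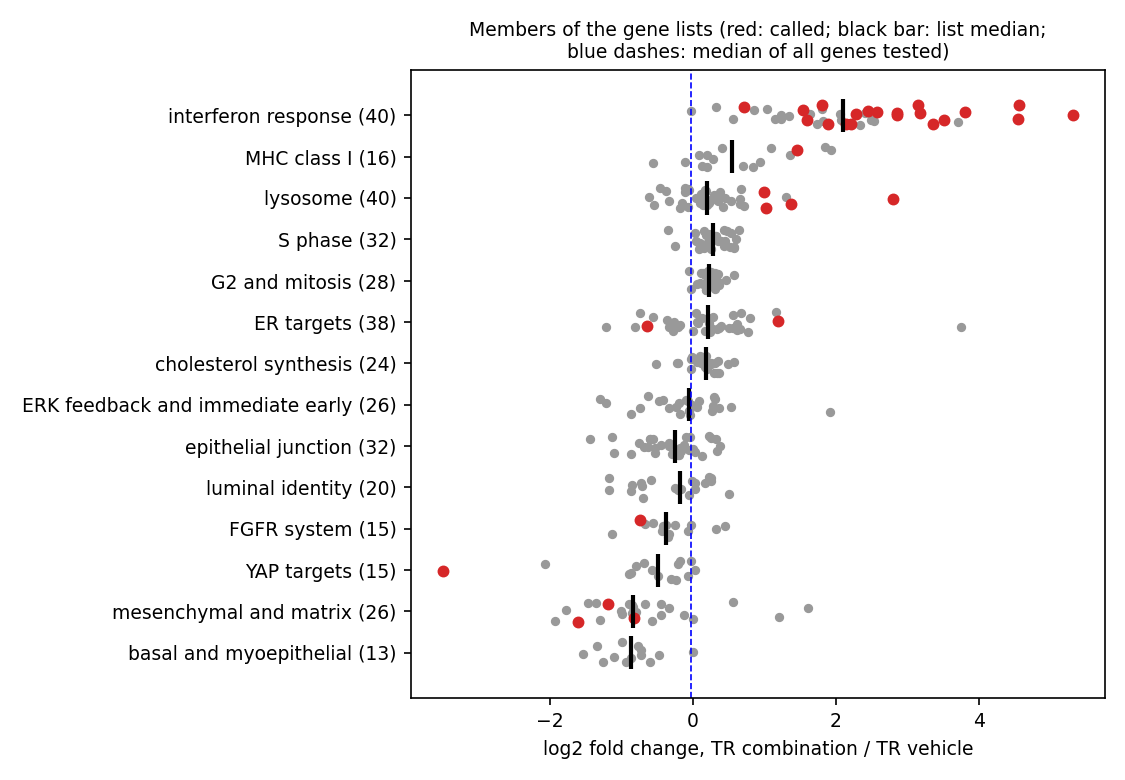
log2 fold change between TR combination and TR vehicle (horizontal axis) of the tested members of 14 gene lists (rows, number tested in parentheses). Red points are called genes, grey points are not, black bars are list medians (2.11 for interferon response, -0.86 for basal and myoepithelial) and the dashed line is the median of all genes (-0.03).

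Adhesion, enzyme and small stress protein genes were also among the falls. ALDH1A3, which makes retinoic acid from retinal (chr15:100877714-100916626), stood at 32.0, 31.2 and 32.7 CPM on vehicle and at 10.9, 9.77 and 9.16 CPM with both drugs. It fell by 1.69 on the log2 scale (SE 0.20; adjusted p = 0.000634, edgeR) in all 6 fits, and was the sole call among 10 retinoid genes (median -0.34). CRYAB, a small heat shock protein gene (chr11:111908564-111923722), stood at 8.31, 22.9 and 18.4 CPM on vehicle and at 3.23, 3.00 and 2.83 CPM with both drugs. TR vehicle 1 was the lowest vehicle library, and still above every treated one. CRYAB fell by 2.45 (SE 0.33; adjusted p = 0.00223, edgeR), or by 2.77 without TR vehicle 1. It was the sole call among 14 heat shock genes, whose median was -0.10. Of all genes, 0.179% fell, which is the share to set beside the retinoid and heat shock lists.

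PTGS1, the COX-1 gene, fell by 1.59 (32.6 ± 9.80 to 10.9 ± 0.586 CPM; adjusted p = 0.0108, edgeR) and was called without TR vehicle 1 or TR vehicle 2 but not without the other libraries (adjusted p = 0.0615 to 0.079). FAT2, a large cadherin gene, fell by 1.49 (24.2 ± 0.633 to 8.62 ± 1.53 CPM; adjusted p = 0.016, edgeR) and was called without TR vehicle 1 or TR combination 1 only (adjusted p = 0.068 to 0.111 in the others). NEDD9, the gene of an adhesion scaffold protein, fell by 1.93 (5.83 ± 1.30 to 1.53 ± 0.610 CPM; adjusted p = 0.0181, edgeR), a call kept without TR vehicle 1 or TR combination 2 and lost in the other fits (adjusted p = 0.0723 to 0.104).

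CDC20B fell by 1.43 (adjusted p = 0.0146) and lost the call without TR vehicle 2, TR combination 1 or TR combination 2 (adjusted p = 0.0723 to 0.0899, edgeR). PADI3, which encodes an enzyme that converts arginine to citrulline in proteins, fell by 1.73 (adjusted p = 0.04), GAS7 by 1.26 (adjusted p = 0.04) and VSIG10L by 0.86 (adjusted p = 0.0368, all edgeR). Each of PADI3, GAS7 and VSIG10L was called among the 6 fits only without TR vehicle 1, with adjusted p = 0.0509 to 0.299 in the others.

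Chemokine genes went in both directions. CXCL12, the ligand of CXCR4 and an ER target gene (chr10:44370165-44386493), stood at 184, 180 and 183 CPM on vehicle and at 371, 438 and 445 CPM with both drugs. The vehicle libraries were almost equal, the groups were separate, and the log2 fold change was 1.20 (SE 0.12; adjusted p = 0.000232, edgeR). CCL28, an epithelial chemokine gene (chr5:43376645-43412391), went from 202, 180 and 187 to 94.5, 97.5 and 85.4 CPM (-1.04, SE 0.11; adjusted p = 0.000354, edgeR). Both calls were kept in all 6 fits. CCL2, which attracts monocytes, went from 5.37, 10.8 and 12.3 to 2.64, 2.54 and 2.06 CPM (-1.97, SE 0.32; adjusted p = 0.0155, edgeR), but was called among the 6 fits only without TR vehicle 1 (-2.25; 0.0723 to 0.111 in the others). These were the 3 calls among 14 NF-kB and cytokine genes tested (0.487% of all genes were called), and the list median was -0.33.

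Of the 40 lysosome genes tested, 4 rose (0.308% of all genes rose) and 0 fell (median 0.20). GPNMB, which encodes a transmembrane glycoprotein of lysosomes and melanosomes (chr7:23235967-23275108), had the smallest p of all genes. It stood at 5.26, 5.72 and 6.57 CPM on vehicle and at 38.0, 33.9 and 50.3 CPM with both drugs, and parental cells had 84.1 ± 3.44 CPM (SD, n = 3). The log2 fold change was 2.80 (SE 0.18; adjusted p = 4.43e-06, edgeR). RRAGD, a GTPase that signals nutrients to mTORC1 at the lysosome, went from 8.72, 6.25 and 5.51 to 17.5, 17.4 and 18.4 CPM (1.38, SE 0.20; adjusted p = 0.00459, edgeR).

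TPP1, a lysosomal peptidase gene, went from 35.6, 40.4 and 37.2 to 72.8, 77.7 and 75.5 CPM (1.00, SE 0.16; adjusted p = 0.00987, edgeR), and lost the call without TR vehicle 3 (0.98; adjusted p = 0.0612). FNIP2, a partner of folliculin, rose by 1.02 (10.5 ± 1.53 to 21.1 ± 2.99 CPM; adjusted p = 0.0219, edgeR) and was called in 2 of the 6 fits. The folliculin gene itself, FLCN, did not pass (0.66; adjusted p = 0.285, edgeR). RRAGD, FNIP2, FLCN and GPNMB are known targets of the MiT/TFE transcription factors, which bind CACGTG-like sites. CACGTG was in 9 of 26 lysosome list windows (34.6%) against 9.91% of windows of genes tested. These were windows of CTSA, CTSD, LAMP1, GAA, NEU1, MCOLN1, ATP6V0D1, RRAGC and FNIP1, and none of these genes was among the 4 that rose. The windows of GPNMB, TPP1 and FNIP2 were without it. The part of the MiT/TFE factors in the rises was not tested.

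**Figure D4:**
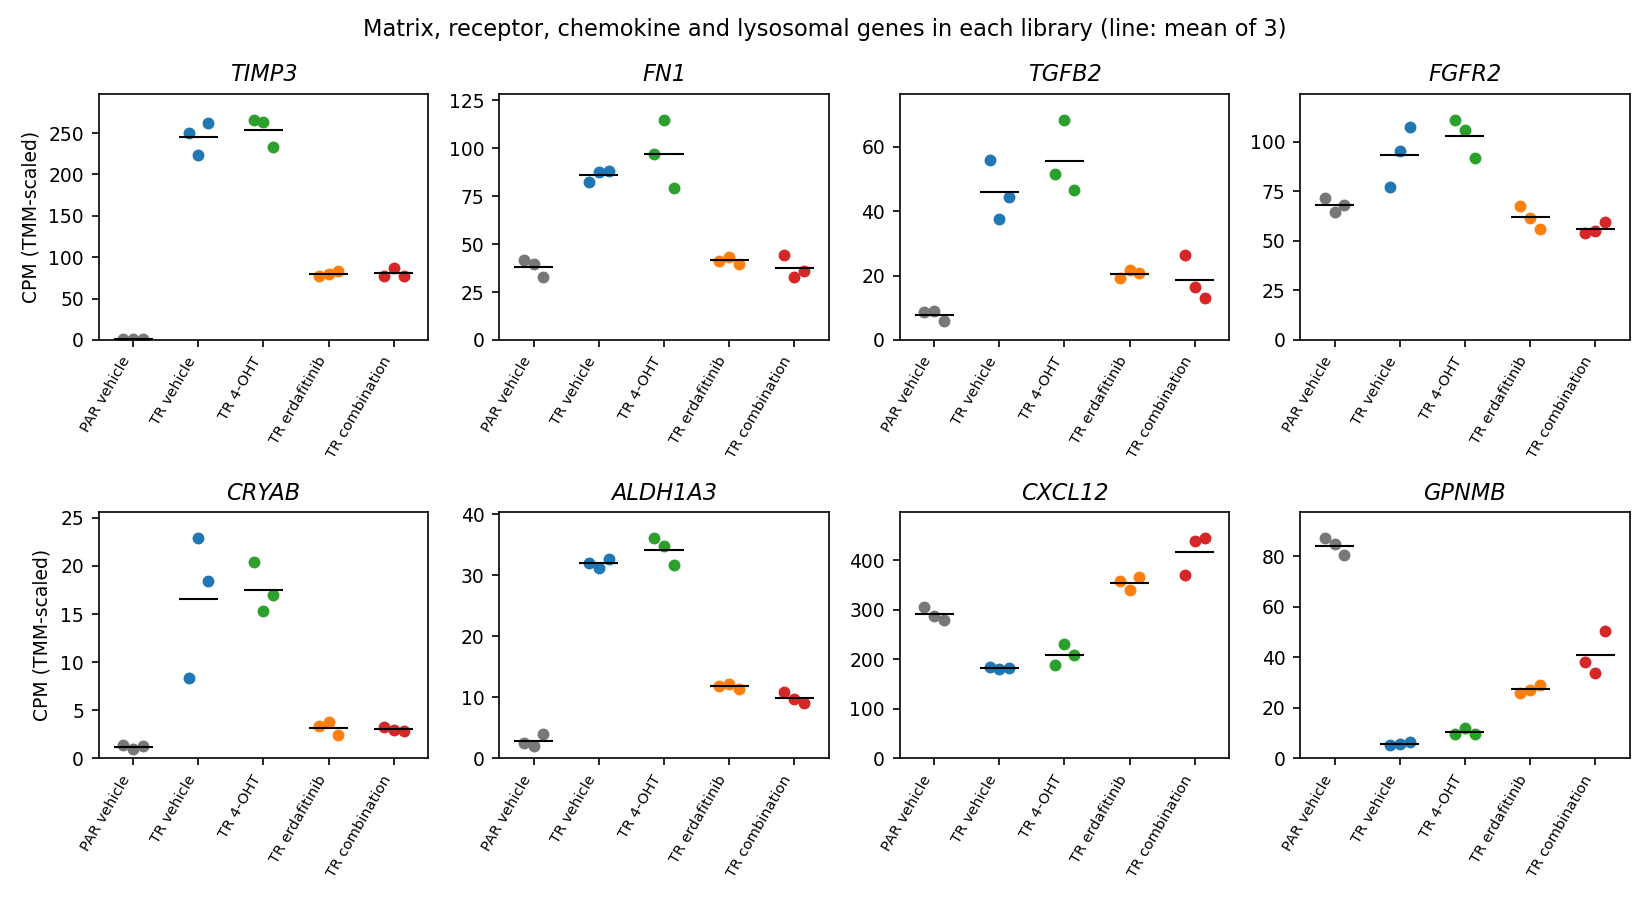
Level of 8 genes outside the interferon list (vertical axes, TMM-scaled CPM from 0) in each of the 15 libraries, by group (horizontal axis), with the mean of 3 libraries as a line. The 3 TR combination points lie below the 3 TR vehicle points for TIMP3, FN1, TGFB2, FGFR2, CRYAB and ALDH1A3, and above them for CXCL12 and GPNMB.

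The receptors that erdafitinib inhibits were also measured as RNA. FGFR2 (chr10:121478332-121598458) stood at 77.1, 95.4 and 107 CPM on vehicle and at 54.1, 54.8 and 59.6 CPM with both drugs. The groups did not overlap and FGFR2 fell by 0.73 on the log2 scale (SE 0.14; adjusted p = 0.0375, edgeR). The call was kept without TR vehicle 1 (-0.85; adjusted p = 0.0091) and lost without each other library (adjusted p = 0.11 to 0.24, edgeR). FGFR1 stood at 40.4, 65.2 and 83.2 CPM on vehicle and at 38.3, 41.7 and 60.3 CPM with both drugs, with overlapping groups (-0.43, SE 0.26; adjusted p = 1). FGFR3 (-0.42, SE 0.50) and FGFR4 (-0.32, SE 0.68) did not pass either (adjusted p = 1 for both). Without TR vehicle 1, FGFR1 was at -0.66 (adjusted p = 0.289) and FGFR3 at -0.68 (adjusted p = 0.551, both edgeR). That fit does not even out GC content between the groups, and the part of GC content in these values was not tested.

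FGFR4 had 1.65 CPM in TR vehicle 1 against 11.1 and 13.1 in the other vehicle libraries, and its log2 fold change was -0.81 without TR vehicle 1 (adjusted p = 0.54, edgeR). Its sign turned without TR vehicle 3 (0.10) and after the GC and length correction (0.10). Per kilobase of exon, FGFR2 had the highest level of the 4 receptors in both groups, at 4.96 ± 0.809 CPM per kb on vehicle and 2.99 ± 0.160 with both drugs (SD, n = 3). FGFR1 was at 3.66 ± 1.25 and 2.72 ± 0.687 CPM per kb, which overlapped with FGFR2 in both groups. FGFR4 (1.79 ± 1.27 and 1.44 ± 0.897) and FGFR3 (1.28 ± 0.460 and 0.962 ± 0.231) had lower means and overlapped with each other. Of 15 FGFR system genes, FGFR2 was the sole call (0.179% of all genes fell), and the median was -0.38.

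Genes that report ERK activity did not pass as single genes. DUSP6, an ERK phosphatase gene that ERK itself induces, stood at 3.40, 3.07 and 3.73 CPM on vehicle and at 3.43, 3.91 and 3.25 CPM with both drugs. The groups overlapped, and the log2 fold change was 0.05 (SE 0.30; adjusted p = 1), with a sign that turned when counts were thinned to the lowest total (-0.23), without TR vehicle 2 (-0.0283), without TR combination 2 (-0.0225) and after the GC and length correction (-0.00504). Of 26 ERK feedback and immediate early genes 0 rose and 0 fell, with a median of -0.06. At an unadjusted p under 0.05, 4 were lower (3.08% of all genes) and 1 higher (3.18%). DESeq2 and the fit with the within-group axis as covariate each called 2 lower, while over all 16210 genes they called 122 and 334 lower. IER2 (-0.62; adjusted p = 0.243), JUN (-0.47; adjusted p = 0.749) and the phosphatase gene DUSP4 (0.36; adjusted p = 0.755, all edgeR) did not pass. Of 21 receptor tyrosine kinase genes 0 were called (median -0.16).

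ER signalling genes had few calls. ESR1, the ER gene (chr6:151656691-152129619), stood at 251, 190 and 195 CPM on vehicle and at 336, 271 and 294 CPM with both drugs. Although the groups did not overlap, the log2 fold change of 0.50 (SE 0.15) did not pass (adjusted p = 0.312, edgeR). PGR, the progesterone receptor gene, stood at 214, 124 and 134 CPM and at 278, 187 and 231 CPM, with overlap (0.56, SE 0.24; adjusted p = 0.703), far below the 3863 ± 987 CPM of PAR. GREB1, an ER cofactor gene, was at 11.5, 14.0 and 13.8 CPM and at 22.3, 18.7 and 27.3 CPM (0.80, SE 0.18; adjusted p = 0.0688, edgeR). Without TR vehicle 1 the values were 0.64 for ESR1, 0.85 for PGR and 0.72 for GREB1. They did not pass there either (adjusted p = 0.0924, 0.139 and 0.141, edgeR).

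Of 38 ER target genes 1 rose (CXCL12) and 1 fell (CA12), against 0.308% and 0.179% of all genes. A positive log2 fold change was found for 26 of the 38, and the median was 0.22. At an unadjusted p under 0.05, 12 were higher (3.18% of all genes) and 2 lower (3.08%). DESeq2 called 3 higher and 1 lower, the fit with the within-group axis as covariate 8 and 2, and the GC and length correction 5 and 1. Of all 16210 genes, these fits called 124 and 122, 307 and 334, and 190 and 179. CA12, a carbonic anhydrase gene, stood at 497, 460 and 492 CPM on vehicle and at 344, 298 and 290 CPM with both drugs (-0.63, SE 0.12; adjusted p = 0.0375, edgeR). It lost the call without any 1 of the 6 libraries (adjusted p = 0.0596 to 0.191). EGR3 was listed at 0 counts in TR vehicle and at 0.0708 ± 0.0250 CPM with both drugs, under the level of 3 counts in a library. Luminal identity (20 tested, median -0.18) and epithelial junction genes (32 tested, median -0.25) had 0 calls. With the within-group axis as covariate 1 luminal gene rose and 5 fell, and 3 junction genes fell. With the GC and length correction 1 luminal gene rose and 2 fell, and 1 junction gene fell. Of all 16210 genes, 334 fell with the axis as covariate and 179 with the correction. CDH1, the E-cadherin gene, stood at 1090, 1048 and 1119 CPM and at 1030, 921 and 917 CPM (-0.18, SE 0.13; adjusted p = 1).

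Proliferation genes did not pass one by one. Of 32 S phase genes 0 were called, 30 had a positive log2 fold change and the median was 0.29, and 9 were higher at an unadjusted p under 0.05 (3.18% of all genes). The fit with the within-group axis as covariate called 6 of them higher and the GC and length correction 4. Of all 16210 genes, those fits called 307 and 190 higher. MCM10, a replication initiation factor, stood at 42.4 ± 4.93 CPM on vehicle and 66.5 ± 16.5 CPM with both drugs (0.65; adjusted p = 0.226, edgeR). G2 and mitosis genes had 26 of 28 positive values (median 0.22) and G1 genes 9 of 13 negative (median -0.17), with 0 calls in either list.

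PSAT1, an enzyme of serine synthesis that ATF4 induces, stood at 56.4, 52.6 and 49.1 CPM on vehicle and at 76.1, 101 and 98.7 CPM with both drugs (0.80, SE 0.15; adjusted p = 0.0219, edgeR). The call was lost without TR vehicle 2, TR vehicle 3, TR combination 2 or TR combination 3 (adjusted p = 0.0909 to 0.149). It was the sole call among 26 endoplasmic reticulum stress and ATF4 genes (median 0.09), while 0.308% of all genes rose. Cholesterol synthesis (24 tested, median 0.18), fatty acid synthesis (16, 0.03), p53 target (20, -0.14), BCL2 family (15, -0.08), xenobiotic AHR (15, -0.16), NRF2 (13, 0.00), hypoxia (19, -0.17) and mitochondrial genome genes (13, 0.16) had 0 calls. With the within-group axis as covariate 4 of the endoplasmic reticulum stress and ATF4 genes and 3 NRF2 targets rose, as did 307 of all 16210 genes.

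To set the pair beside each single drug, the same fit was read for the other treatments, which share the TR vehicle libraries. Because of the shared libraries, values are only set side by side. Against vehicle, erdafitinib called 15 genes (0.0925%), 7 higher (0.0432%) and 8 lower (0.0494%), and 4-OHT called 0 (0%), with an unadjusted p under 0.05 for 127 (edgeR; DESeq2 was not run for it). All 15 genes called with erdafitinib were among the 79 called with the pair. In 76 of the 79 the erdafitinib mean lay between those of vehicle and the pair. The 79 were picked by the pair's values, so this placement is partly set by the selection. For the 29 that fell, the median log2 fold change from vehicle was -1.49 for the pair and -1.05 for erdafitinib. For the 50 that rose it was 1.49 and 0.91. The median log2 fold change of the 40 interferon genes was 2.11 for the pair, 0.89 for erdafitinib and -0.00 for 4-OHT. MX1 stood at 129 ± 39.8 CPM with erdafitinib, 43.4 ± 4.81 with 4-OHT and 439 ± 86.8 with both (SD, n = 3). For TIMP3 the levels were 80.3 ± 2.88, 254 ± 18.4 and 80.5 ± 5.29 CPM.

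Tested directly against erdafitinib alone, the pair called 0 genes (0%), with 104 at an unadjusted p under 0.05 (75 higher, 0.463%, and 29 lower, 0.179%). The smallest adjusted p belonged to LAMP3, at 31.9 ± 4.59 CPM with erdafitinib and 100.3 ± 23.8 CPM with both (log2 fold change 1.65, SE 0.24; adjusted p = 0.121, edgeR). MX1 differed by 1.76 (SE 0.28; adjusted p = 0.155) and OAS2 by 1.35 (SE 0.24; adjusted p = 0.328, both edgeR). Of the 40 interferon genes, all had a higher mean with both drugs, 26 were higher at an unadjusted p under 0.05 and 30 had separate groups (2.97% of all genes). The result depended on the tool: DESeq2 called 18 genes, 17 higher, of which 12 were interferon list members and the others LAMP3, DTX3L, PLSCR1, CLGN and B2M. For TIMP3 the difference was 0.00 (SE 0.13).

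Against 4-OHT alone the pair called 104 genes (0.642%), 48 higher and 56 lower. The count was 51 without TR 4-OHT 1, 63 without TR 4-OHT 2, 61 without TR 4-OHT 3 and 45 to 56 without 1 of the combination libraries. GPNMB (log2 fold change 1.96; adjusted p = 8.69e-05), LAMP3 (3.13; adjusted p = 5.66e-05) and TIMP3 (-1.66; adjusted p = 5.66e-05, all edgeR) had the smallest p. The interaction, which asks whether the pair differs from the sum of the single-drug effects on the log2 scale, called 0 genes (0%), with an unadjusted p under 0.05 for 134. DESeq2 called 1. The 3 smallest p belonged to LAMP3 (1.84, SE 0.34), MX1 (1.59, SE 0.39) and B2M (0.90, SE 0.22), and the smallest adjusted p was 0.999973 (edgeR).

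**Figure D5:**
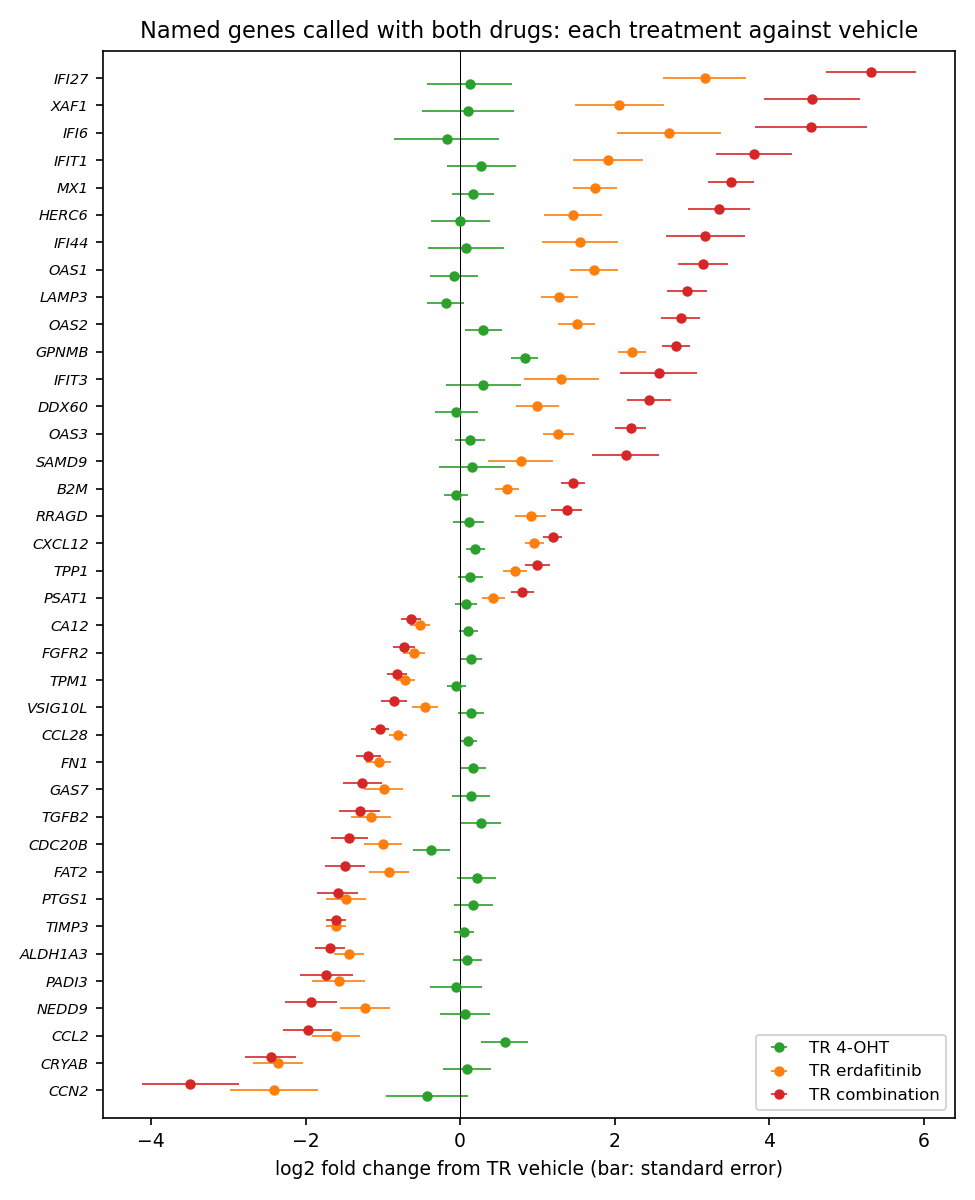
log2 fold change from TR vehicle (horizontal axis; bars are standard errors) for 4-OHT (green), erdafitinib (orange) and both drugs (red) in 38 of the named genes called with both drugs (rows). The 3 treatments share the TR vehicle libraries. For MX1 the values are 0.17, 1.74 and 3.51, and for TIMP3 0.05, -1.61 and -1.61.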

How the data were processed

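Total RNA was made into stranded paired-end libraries, and what the authors deposited is 1 table of unnormalised read counts for each library. Per the file headers, counting used featureCounts 2.0.1, reverse-stranded, on Ensembl 104. The submitters' processing notes name HISAT2 2.1.0 on GRCh38 and another featureCounts version, 1.4.6-p1. Reads that matched several places were left out by default, which lowers the counts of near-identical genes.

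From these counts, genes were kept by filterByExpr (16210 of 60664), scaled by TMM (factors 0.907 to 1.102) and fitted in edgeR 4.0.16 (R 4.3.3) with a mean for each of the 5 groups, no block and 10 residual degrees of freedom. The quasi-likelihood F test was used with Benjamini-Hochberg adjustment over all genes, and called means an adjusted p under 0.05. Standard errors were taken as the absolute log2 fold change over the square root of F. The common biological coefficient of variation was 30.8%, and 3 counts equalled 0.11 to 0.143 CPM in the 6 libraries. Counts of replicates differed by more than counting error (chi-square per gene 7.42 to 148), which leaves no duplicate libraries. In simulated counts for the pair against vehicle (16210 genes), the share of changed genes called was 2% at 1.5-fold, 17.3% at 2-fold, 66% at 4-fold and 87.3% at 8-fold. With 200 genes changed in each of 3 draws, 19 unchanged genes were called over all draws. Each gene was drawn separately, so the within-group axis was absent.

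Named genes were up to 15 of the strongest called changes in each direction (protein-coding, mean log2 CPM 2 or more, no overlap of groups), the 3 called members with the smallest p of each list, a fixed set (FGFR1 to FGFR4, ESR1, PGR, GREB1, CDH1, VIM, DUSP6, GPNMB and TIMP3), and the 3 smallest p of each direct comparison. Other list members are named after their values were seen. Some genes are not reported here. The members and the 29 lists were chosen with earlier results of these data known, and lists are described by counts and medians without a test. Alternatives were DESeq2 1.42.0, DESeq2 size factors, other filters, the compared groups alone, a replicate block, a 1.5-fold threshold, thinned counts, the within-group axis as covariate, leaving out libraries and, chosen after seeing the data, a GC and length correction. Gene coordinates are those of the file headers' annotation on GRCh38, and promoters are from RefSeq.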

Additional observations from a re-analysis of the deposited data

How the results depend on the processing

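For the pair against vehicle the count of 79 was 246 with DESeq2 (124 higher, 122 lower), 641 with the within-group axis as covariate (307 and 334), 369 with the GC and length correction, 28 against a 1.5-fold change, 11 with only the compared groups, and 35 to 111 without 1 library. Against 4-OHT the count of 104 was 288, 746, 426, 33 and 65 in the same order of settings, and 45 to 63 without 1 library. Against erdafitinib the count of 0 became 18 with DESeq2, 9 without a filter on low counts, 17 with the axis as covariate and 10 with the GC and length correction; the interaction had 1 call with DESeq2. The cause of these shifts was not tested. Replicate numbers are shared between groups. Between TR combination and TR vehicle the correlations of same-numbered deviations were 0.77, -0.01 and 0.75, while TR combination 3 with TR vehicle 2 gave 0.65. Between TR combination and TR erdafitinib the same-numbered values were -0.73, 0.11 and -0.66. Because the sign changed between groups, the numbers were not taken to pair the libraries. With the replicate block 52 genes were called (33 higher, 19 lower). FGFR4 turned positive with the GC and length correction (0.10) and without TR vehicle 3 (0.10), and DUSP6 turned negative with thinned counts (-0.23), the GC and length correction (-0.00504), without TR vehicle 2 (-0.0283) and without TR combination 2 (-0.0225). Without 1 library FGFR4 ranged from -0.98 to 0.10 and DUSP6 from -0.0283 to 0.11. The called named genes kept their direction under all alternatives run for them.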

Other observations

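Called genes outside the named set, chosen here after their values were seen, included more genes known to respond to interferon. DTX3L, the partner of PARP9, rose from 36.2 ± 7.64 to 121 ± 22.7 CPM (SD, n = 3; log2 fold change 1.74, SE 0.19). PLSCR1, a phospholipid scramblase gene, rose from 14.0 ± 0.896 to 51.0 ± 12.6 CPM (1.87, SE 0.23), SP110, a nuclear body protein gene, by 1.34 and SAMHD1, a deoxynucleotide hydrolase gene, by 1.02. These were called in all 6 fits that left out 1 library. PARP12 (1.00) and ADAR (0.78), which encodes an RNA editing enzyme, rose as well, in 1 and 2 of those fits. The interferon response element was in the promoter windows of DTX3L, PLSCR1, PARP12 and B2M, 4 of 25 windows of genes that rose outside the interferon list (16%).

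The interferon genes themselves were almost without counts. Over 22 interferon ligand genes, TR combination had 1 count in all, TR erdafitinib 3, and TR vehicle and TR 4-OHT 0, which is at or under the limit of 3 counts. The receptor genes IFNAR1 (log2 fold change 0.09, SE 0.18), IFNGR1 (0.06, SE 0.18) and IFNGR2 (-0.11, SE 0.16) were tested and not called (adjusted p = 1 for each, edgeR).

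Other rises outside the lists were CLGN, a chaperone gene (4.34 ± 1.07 to 16.0 ± 1.09 CPM; 1.89), NIBAN1, a stress response gene (0.86), PEG10, a gene derived from a retrotransposon (1.14), LRRC15 (1.02) and the interleukin 1 receptor gene IL1R1 (0.91). Of these, CLGN and NIBAN1 were called in 4 of the 6 fits without 1 library. Among the falls, MIR205HG, the host gene of miR-205, went from 49.6 ± 2.37 to 24.1 ± 1.75 CPM (-1.04, SE 0.15). ZNF710-AS1 went from 21.9 ± 2.32 to 6.30 ± 1.10 CPM (-1.80, SE 0.21), and ADGRA2, an adhesion receptor gene, from 3.62 ± 1.59 to 0.341 ± 0.0590 CPM (-3.39, SE 0.45). These 3 were called in all 6 fits. GJA5 (-4.21) and DIO2 (-2.61), which encodes a thyroid hormone deiodinase, were called in 3 and 2 of the fits, and DKK1, a WNT inhibitor gene (-1.92), in 0.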
